A study of Mus musculus with 20 samples.

Results

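Gastrocnemius muscle taken after a sciatic nerve crush was compared with gastrocnemius of non-transgenic (NTg) mice. The comparison used 8 of the 20 arrays of the study, 4 labelled as crushed gastrocnemius and 4 labelled as NTg gastrocnemius, all chosen by their titles. The crushed group came from anesthetised mice aged 12 weeks whose sciatic nerves were squeezed with forceps for 30 s and whose muscle was collected 2 weeks later, at 14 weeks. The labels do not state which genotype was crushed, and no sham-operated muscle was analysed here. Another group, gastrocnemius of SOD1G93A mice (called SOD1 below), which carry a mutant human SOD1 transgene and model amyotrophic lateral sclerosis, was set beside the crush at the end. The NTg mice carried no transgene, and all groups were female C57BL/6 mice aged 14 weeks. Each array held the RNA of 1 muscle sample, and the titles call the 4 arrays of a group biological replicates; the small number of arrays limits the precision of every value.

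Muscle fibres receive their signal at the neuromuscular junction, where acetylcholine from the motor nerve opens a receptor clustered under the nerve ending. When a fibre loses its nerve, it is known to switch on the receptor genes along its whole length, to make the fetal gamma subunit again, and to raise the myogenic transcription factors that drive these genes through short DNA motifs called E-boxes. A crush leaves the nerve's sheaths in place, so that axons can grow back and reach the muscle again, and these genes then fall. Muscle is a mixture of fibres, vessels, connective tissue and nerve branches, and in such bulk samples fewer cells of a type and less RNA per cell cannot be told apart.

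The crushed arrays did not form one group. Across probe sets, crush replicate 4 correlated with crush replicates 1 to 3 at r of 0.902 to 0.909, whereas each of replicates 1 to 3 reached 0.976 with its nearest neighbour and the NTg arrays lay between 0.977 and 0.981 among themselves. Of 4832 genes tested, 166 were more than 1 log2 unit higher in crush replicate 4 than in the mean of crush replicates 1 to 3, and 266 were more than 1 log2 unit lower. Array medians nevertheless lay between 6.61 and 6.76 on the log2 scale. Changes are therefore given with and without crush replicate 4, and whether that array differs in surgery, regrowth or handling was not tested. All 14 muscle fibre markers passed the filter, among them Ckm, the muscle creatine kinase, at 12.66, 12.63, 11.11 and 13.01 in crushed muscle and 10.96, 11.29, 12.32 and 12.05 in NTg muscle, and none was called.

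Across the 7523 probe sets tested, limma at an adjusted p of 0.05 called 311 probe sets between crush and NTg with all arrays, 81 higher and 230 lower, or 4.13% of those tested. Without crush replicate 4 it called 395, 171 higher and 224 lower, or 5.25%. Counted as genes, 61 were higher (1.26%) and 143 lower (2.96%) with all arrays, and 129 were higher (2.67%) and 138 lower (2.86%) without that array. Groups without overlap between 4 crush and 4 NTg arrays were seen in 7.47% of genes for higher values and 8.86% for lower ones. Of the called genes, 48 higher and 98 lower ones were called in both fits. The 48 are 78.7% of the higher calls with all arrays and 37.2% of the higher calls without crush replicate 4, and the 98 are 68.5% and 71.0% of the lower calls. The all-array count was 193, 109 or 236 probe sets without crush replicate 1, 2 or 3, and 159, 120, 126 or 94 without NTg replicate 1, 2, 3 or 4. Of 59 named genes called without crush replicate 4, 17 kept their call whichever further array was left out: Sln, Cbr2, Gamt, Serpinb6a, Ccnd1, Grb14, Gpx1, Vim, Dlat, Wnt4, Pim1, Klf10, Tubb4b, Txnip, Ccdc50, Ccnk and Zfp651.

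Sarcolipin (Sln), a small membrane peptide that slows the calcium pump of the sarcoplasmic reticulum, had the largest rise among the named genes in both fits. Its log2 signal was 10.98, 11.49, 11.23 and 13.14 in crush replicates 1 to 4, against 7.99, 5.70, 8.63 and 7.70 in the NTg arrays. Every crush array lay above every NTg array, and replicate 4 was the highest. The change was 4.21 ± 0.61 on the log2 scale (SE, adjusted p = 0.00117, limma), or 18.5-fold with a 95% interval of 7.66 to 44.7, and 3.73 ± 0.61 without replicate 4 (adjusted p = 0.00186). MAS5 signals have no floor, so folds against dim groups are uncertain.

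Tubb6, a beta tubulin of remodelling muscle fibres, read 5.38, 5.29, 6.08 and 8.33 after the crush, against 4.37, 2.03, 2.24 and 3.92 in NTg muscle. All 4 crush arrays were above the NTg arrays, with replicate 4 well above the others. It rose by 3.13 ± 0.63 log2 units (adjusted p = 0.0102, limma) and by 2.45 ± 0.55 without replicate 4 (adjusted p = 0.0162). All NTg values of Tubb6, and those of crush replicates 1 and 2, lay under 5.88, the mean signal below which probe sets were left out. The size of its rise is therefore uncertain. Cbr2, a carbonyl reductase, gave even values, at 8.02, 8.46, 8.62 and 7.98 in crushed muscle and 5.83, 6.15, 5.74 and 6.08 in NTg muscle. Its groups were far apart, and replicate 4 did not stand out: the rise was 2.32 ± 0.33 with that array and 2.42 ± 0.36 without it (adjusted p = 0.00108 and 0.000953, limma).

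Further genes were higher in every crush array and called in both fits. Serpinb6a, a protease inhibitor, read 10.51, 10.79, 10.61 and 11.81 after the crush and 9.41, 9.04, 8.99 and 9.16 in NTg muscle, a rise of 1.78 ± 0.30. Gpx1, the glutathione peroxidase that removes hydrogen peroxide, read 9.53, 9.83, 9.68 and 10.40 against 8.81, 8.74, 8.54 and 8.43, a rise of 1.23 ± 0.19. Igf2, an insulin-like growth factor of developing and regenerating muscle, read 7.51, 7.62, 7.43 and 7.73 against 6.86, 6.21, 6.78 and 5.88, a rise of 1.14 ± 0.23. None of these groups overlapped. A call and the absence of overlap were conditions for naming the largest rises and falls, so they add no separate support for such genes. The rises without replicate 4 were 1.49 for Serpinb6a, 1.05 for Gpx1 and 1.09 for Igf2 (adjusted p = 0.00603, 0.00191 and 0.0166, limma). Map1lc3a, which coats autophagosomes, Abca1, a cholesterol exporter, Mid1ip1, which promotes fatty acid synthesis, and Copz2, a coat protein of transport vesicles, rose in both fits by 0.90 to 1.72 log2 units. Sln, Cbr2, Serpinb6a and Gpx1 kept their calls in all 8 fits that left out 1 array and in all 7 that also left out crush replicate 4. Tubb6 and Igf2 kept theirs in 8 of the 8, but in 4 and 3 of the 7 (highest adjusted p of 0.072 without crush replicate 3 for Tubb6 and 0.087 without crush replicate 2 for Igf2).

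**Figure D1:**
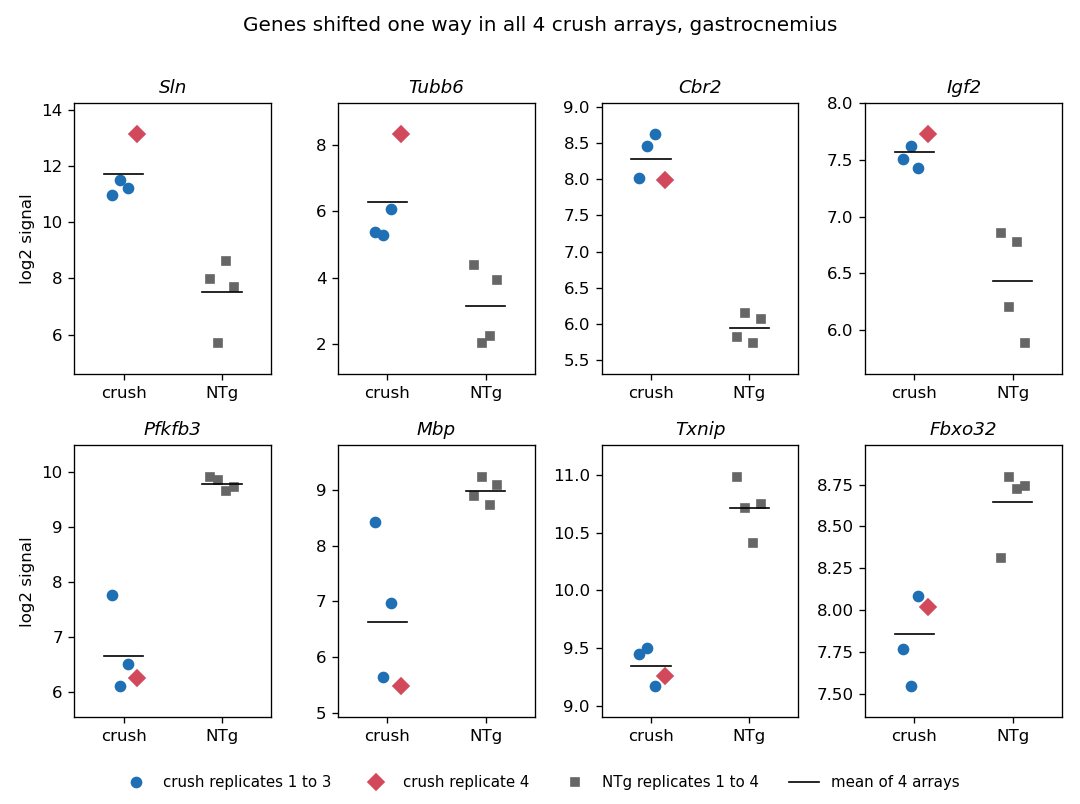
Log2 signal of 8 genes in each of 4 crush arrays (circles, and a diamond for replicate 4) and 4 NTg arrays (squares), with black lines at group means. Sln, Tubb6, Cbr2 and Igf2 lay higher in every crush array, and Pfkfb3, Mbp, Txnip and Fbxo32 lay lower in every crush array.

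Among the named genes Pfkfb3 had the largest fall in both fits. It encodes an enzyme that makes fructose 2,6-bisphosphate, the activator of glycolysis. Its signal was 7.77, 6.11, 6.52 and 6.25 in crushed muscle, against 9.92, 9.87, 9.66 and 9.73 in NTg muscle. The NTg arrays were tightly grouped and the highest crush array was still well under them. Pfkfb3 fell by 3.13 ± 0.54 log2 units (adjusted p = 0.00403, limma), 8.78-fold with an interval of 4.00 to 19.3, and by 3.0 ± 0.59 without replicate 4 (adjusted p = 0.00829). It was the 1 called member of 17 tested glycolysis genes, beside 2.96% of all genes lower with all arrays and 2.86% without replicate 4. The list's median change was -0.21 with all arrays and 0.04 without replicate 4, against 0.03 over all genes in both fits. Leaving out crush replicate 2 as well as replicate 4 ended the call of Pfkfb3, at an adjusted p of 0.058.

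Txnip, which binds thioredoxin and limits glucose uptake, read 9.45, 9.50, 9.17 and 9.26 after the crush and 10.98, 10.71, 10.41 and 10.75 in NTg muscle. The ranges were apart, and the fall of 1.37 ± 0.17 was 1.34 ± 0.18 without replicate 4 (adjusted p = 0.000464 and 0.000546, limma). Ccdc50, an adaptor protein, read 8.36, 8.29, 8.05 and 8.0 against 9.34, 9.65, 9.30 and 9.63, a fall of 1.31 ± 0.15 and of 1.25 ± 0.15 without that array. Me1, a cytosolic enzyme that supplies NADPH, read 8.67, 7.98, 8.26 and 8.62 against 9.53, 9.60, 9.49 and 9.70, a fall of 1.2 ± 0.26 and of 1.28 ± 0.28 without it. All crush values of these genes lay under all NTg values. The kinase Pim1, Ppp1r1a, an inhibitor of protein phosphatase 1, Tuba8, an alpha tubulin, Ppp1r3c, which targets phosphatase to glycogen, Aebp1, Rasd2, Ccnk and Pla2g7, an enzyme that breaks down platelet-activating factor, also fell in both fits, by 0.85 to 1.80 log2 units.

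The acetylcholine receptor genes are the classic readout of denervation, and here Chrna1 and Chrnb1 were far higher in 1 crush array than in the others. Chrna1, the alpha subunit, read 6.97, 7.28, 7.40 and 11.34 in crushed muscle, against 6.55, 6.24, 6.81 and 6.20 in NTg muscle. Replicate 4 was far above all other arrays, while replicates 1 to 3 lay just above the NTg range. The change was 1.79 ± 0.75 with all arrays (adjusted p = 0.178, limma) and 0.76 ± 0.55 without replicate 4 (adjusted p = 0.462). Chrnb1, the beta subunit, read 6.52, 7.03, 6.96 and 9.16 against 6.57, 6.24, 6.62 and 6.30. Replicate 1 lay within the NTg range, replicates 2 and 3 above it and replicate 4 far above it. Chrnb1 was not called (adjusted p = 0.252 with all arrays and 0.621 without replicate 4, limma).

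Chrng, the fetal gamma subunit, fell below the filter on low signal. Its brighter probe set read 0.85, 2.12, 1.38 and 8.16 after the crush and 1.72, 1.40, 0.95 and 2.0 in NTg muscle, so that crush replicate 4 stood alone. Chrne, the adult epsilon subunit, which replaces gamma at mature junctions, was also below the filter, at 5.66, 5.87, 6.19 and 5.63 against 5.42, 5.94, 5.32 and 6.24, with overlapping groups. In fits with no filter neither passed the test (adjusted p = 0.592 for Chrng and 0.871 for Chrne with all arrays, and 0.981 and 0.802 without replicate 4, limma). Chrnd was not analysed here.

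Of the myogenic factors, Myog, Myod1 and, by its brighter probe set, Runx1 were far higher in crush replicate 4 than in replicates 1 to 3. Myf5 did not stand out in that array, and Myf6 was higher than NTg in every crush array. Myog, a factor of differentiating muscle that is raised by denervation, read 6.31, 6.85, 7.09 and 10.14 in crushed muscle and 5.74, 6.14, 6.32 and 6.07 in NTg muscle (adjusted p = 0.173 with all arrays and 0.447 without replicate 4, limma). Myod1, a factor that starts the muscle programme, read 6.06, 6.41, 6.45 and 9.56 against 6.32, 6.7, 6.36 and 6.65 (adjusted p = 0.605 and 0.844). For Myog, replicate 1 lay within the NTg range and replicates 2 and 3 lay above it. For Myod1, replicates 1 to 3 overlapped the NTg arrays. In both genes replicate 4 lay far above all other crush and NTg arrays. Runx1, a factor that limits wasting of denervated fibres, was below the filter, and its brighter probe set read 3.89, 3.32, 4.07 and 8.02 against 3.58, 2.39, 4.01 and 3.19. Its dimmer probe set read 4.30, 3.06, 4.03 and 8.64 against 3.62, 0.07, 1.57 and 0.16, with replicates 1 and 3 also above NTg. With no filter its adjusted p was 0.055 with all arrays and 0.12 without replicate 4 (limma). Myf5 was below the filter as well, at 4.19, 4.07, 3.76 and 4.12 against 3.87, 2.94, 3.24 and -0.18, and its replicate 4 was within the range of the other crush arrays.

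Myf6, the myogenic factor most abundant in adult fibres, was called in both fits. Its signal was 9.04, 9.22, 9.39 and 11.18 after the crush, against 8.55, 8.70, 8.53 and 8.49 in NTg muscle. Every crush array was above every NTg array, and replicate 4 was the highest. It rose by 1.14 ± 0.32 (adjusted p = 0.0474, limma) and by 0.65 ± 0.18 without replicate 4 (adjusted p = 0.0458). The call held in 2 of 8 fits that left out 1 array and in 0 of 7 that left out another array beside replicate 4, where the highest adjusted p was 0.16 without crush replicate 3. It was the 1 called member of 16 tested in the list of myogenic and denervation-responsive regulators. Over all genes, 1.26% were higher with all arrays and 2.67% without replicate 4. That list had a median of 2.11 over the NTg mean in crush replicate 4 and of -0.02, 0.09 and 0.10 in replicates 1, 2 and 3.

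**Figure D2:**
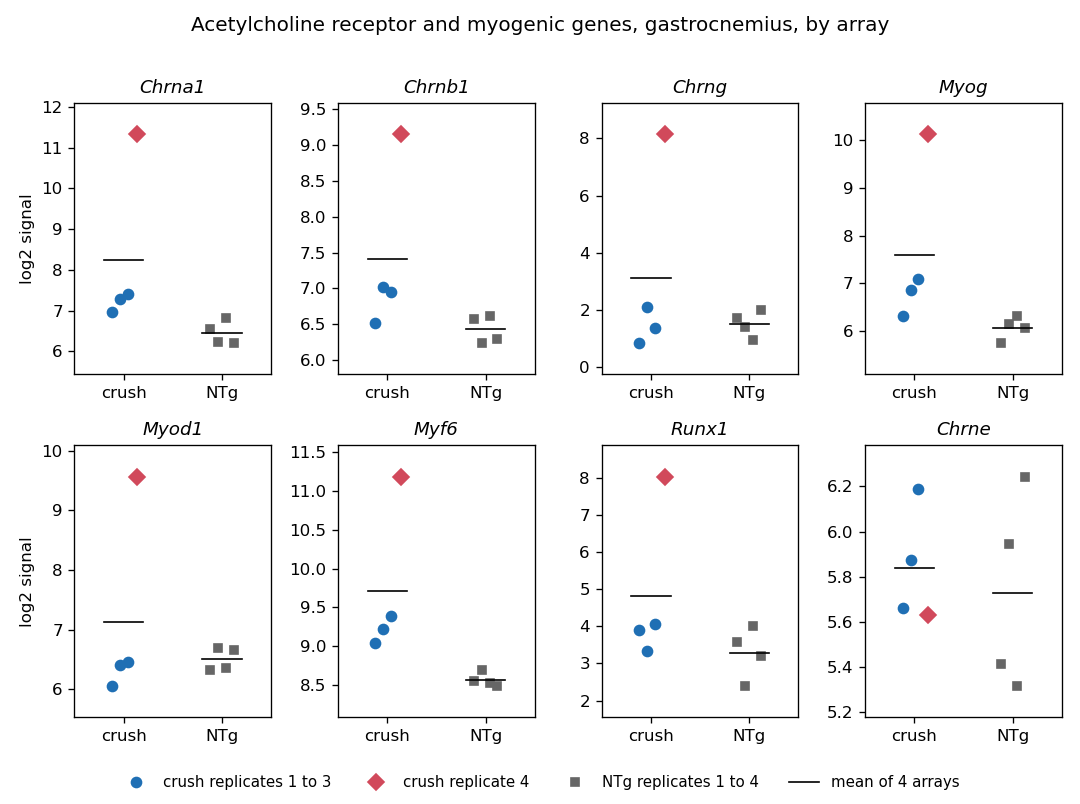
Log2 signal of 8 acetylcholine receptor and myogenic genes in 4 crush arrays (circles, and a diamond for replicate 4) and 4 NTg arrays (squares), with black lines at group means. In 7 of the genes the diamond is the highest value, and Chrne does not separate the arrays.

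Promoters of these genes show where myogenic factors could bind, and the windows of 3 genes that were high in crush replicate 4 are given here with every CANNTG E-box in capitals. The sequences are RefSeq's for GRCm38.p6, 5′ to 3′ on the gene's strand, from 250 bases before the start to 50 after it, and they lie at chr2:73580289-73580588, minus strand for Chrna1, chr1:87205561-87205860, plus strand for Chrng and chr1:134289754-134290053, plus strand for Myog.
Chrna1: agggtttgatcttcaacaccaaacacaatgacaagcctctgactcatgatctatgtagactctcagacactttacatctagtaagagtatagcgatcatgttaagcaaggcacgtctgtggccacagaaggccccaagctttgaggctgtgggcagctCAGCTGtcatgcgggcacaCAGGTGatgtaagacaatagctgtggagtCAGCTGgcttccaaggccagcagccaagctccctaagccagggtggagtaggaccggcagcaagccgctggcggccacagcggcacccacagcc
Chrng: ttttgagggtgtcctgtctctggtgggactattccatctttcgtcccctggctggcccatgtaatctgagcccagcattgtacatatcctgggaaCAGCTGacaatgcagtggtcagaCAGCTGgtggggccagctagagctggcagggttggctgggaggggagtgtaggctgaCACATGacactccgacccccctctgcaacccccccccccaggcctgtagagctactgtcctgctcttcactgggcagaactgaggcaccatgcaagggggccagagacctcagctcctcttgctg
Myog: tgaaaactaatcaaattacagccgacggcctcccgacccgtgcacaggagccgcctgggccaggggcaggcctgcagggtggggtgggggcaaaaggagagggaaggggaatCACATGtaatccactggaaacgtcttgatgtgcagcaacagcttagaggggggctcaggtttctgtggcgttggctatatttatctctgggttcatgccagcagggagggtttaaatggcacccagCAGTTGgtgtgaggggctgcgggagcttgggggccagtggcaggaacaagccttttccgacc
CANNTG reads the same on both strands and includes CAGCTG, the form most used by myogenic factors. Chrna1 and Chrng each hold 3 CANNTG sites, 2 of them CAGCTG, and Myog holds 2 CANNTG sites and 0 CAGCTG sites. Of 10 receptor and myogenic genes looked up, 7 were in the table, 6 of these held CANNTG in a window and 3 held CAGCTG. Among all 32851 promoters in the table, 72.3% held CANNTG and 16.3% held CAGCTG. A match describes letters only, and binding was not measured.

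Rapsn, the junction protein that clusters the receptor, read 5.90, 5.63, 5.69 and 6.71 after the crush and 6.69, 6.56, 6.63 and 6.48 in NTg muscle. Replicates 1 to 3 lay below NTg and replicate 4 above it. Rapsn fell by 0.85 ± 0.18 without replicate 4 (adjusted p = 0.0102, limma), while with all arrays the change was -0.61 (adjusted p = 0.103). Dlg1, a scaffold protein, read 7.87, 7.54, 7.73 and 8.02 against 8.33, 8.49, 8.43 and 8.38, lower in every crush array, and fell in both fits (-0.62 and -0.70, adjusted p = 0.0344 and 0.0213). Its call was kept in 1 of 8 and 3 of 7 fits that left out an array, and the highest adjusted p was 0.12 without crush replicates 2 and 4. Of 9 tested junction genes, 0 rose and 2 fell in each fit, the other with all arrays being Cd24a, a surface glycoprotein (-1.01, adjusted p = 0.044, and -0.76, adjusted p = 0.091, without replicate 4), beside 2.96% of all genes lower with all arrays and 2.86% without replicate 4, and the list median was 0.30 with all arrays and 0.29 without replicate 4.

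Genes of the citrate cycle and fatty-acid oxidation mostly stood above the NTg mean in crush replicates 1 to 3 and below it in replicate 4. Their list had 41 tested genes, whose median over the NTg mean was 0.29, 0.36 and 0.30 in crush replicates 1 to 3 and -0.75 in replicate 4. In NTg replicates 1 to 4 the median was -0.01, -0.08, 0.19 and -0.12. In NTg replicate 3, 37 of the 41 also lay above the NTg mean, beside 39, 37 and 38 in crush replicates 1 to 3. In replicate 4, 33 of the 41 lay below the lowest NTg array, while 24, 30 and 24 lay above the highest NTg array in replicates 1 to 3. Over all genes tested, 35.6% lay below the lowest NTg array in replicate 4, and 29.8%, 31.5% and 33.5% lay above the highest one in replicates 1 to 3. Without replicate 4, 11 of the 41 rose and 0 fell, and 40 of 41 changes were positive with a median of 0.31. With all arrays 0 of the 41 were called and 26 changes were positive, with a median of 0.11. Over all genes tested, 2.67% rose without replicate 4, 2608 of 4832 changes were positive, and the median was 0.03.

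Dlat, a core subunit of pyruvate dehydrogenase, read 9.49, 9.67, 9.55 and 8.19 in crushed muscle and 8.89, 8.77, 8.84 and 8.79 in NTg muscle. Replicates 1 to 3 lay above every NTg array and replicate 4 below every one. It rose by 0.75 ± 0.13 without replicate 4 (adjusted p = 0.00256, limma), and the change with all arrays was 0.40 (adjusted p = 0.323). Dimmer Dlat probe sets that passed the filter changed by 0.90 and 0.23 without replicate 4 (adjusted p = 0.000612 and 0.51 with no filter, limma). With all arrays they changed by 0.57 and -0.22. Dlst, of the 2-oxoglutarate dehydrogenase complex, read 9.39, 9.76, 9.76 and 8.32 against 9.02, 8.96, 9.15 and 9.0, and rose by 0.60 without replicate 4 (adjusted p = 0.00858), against 0.27 with it (adjusted p = 0.507). Hadh, of the fatty-acid oxidation spiral, read 11.67, 11.77, 11.40 and 9.96 against 10.97, 11.06, 11.13 and 10.96, and rose by 0.58 without replicate 4 (adjusted p = 0.0226), against 0.17 with it (adjusted p = 0.764). Acaa2, the thiolase of that spiral, read 9.87, 10.10, 9.80 and 7.80 against 9.30, 9.18, 9.59 and 8.97, and rose by 0.66 without replicate 4 (adjusted p = 0.0366), against 0.13 with it (adjusted p = 0.868). Dimmer Acaa2 probe sets that passed the filter changed by 0.61 and 0.46 without replicate 4 (adjusted p = 0.068 and 0.36 with no filter, limma). With all arrays they changed by 0.25 and -0.05. The other called members, named after their values were seen, were Pdhb, Dld, Cpt2, Acadvl, Acads, Decr1 and Etfdh.

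The count of 11 depended on the arrays. It was 2, 1 and 3 when crush replicate 1, 2 or 3 was left out beside replicate 4, and 5, 5, 12 and 2 when NTg replicate 1, 2, 3 or 4 was left out. The list median stayed between 0.24 and 0.39 in these fits. Of 73 respiratory chain and ATP synthase genes, 67 changes were positive without replicate 4 with a median of 0.17, and 42 were positive with all arrays with a median of 0.03, beside 2608 and 2611 of all 4832 genes. In that list 1 gene rose without replicate 4, Ndufb10 of complex I (0.52, adjusted p = 0.0238, limma), against 0.17 with all arrays (adjusted p = 0.718). That is 1 of 73, beside 2.67% of all genes. That list's median over the NTg mean was 0.21, 0.33 and 0.03 in crush replicates 1 to 3 and -0.38 in replicate 4. In the NTg arrays it lay between -0.06 and 0.08, so crush replicate 3 was inside their range.

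**Figure D3:**
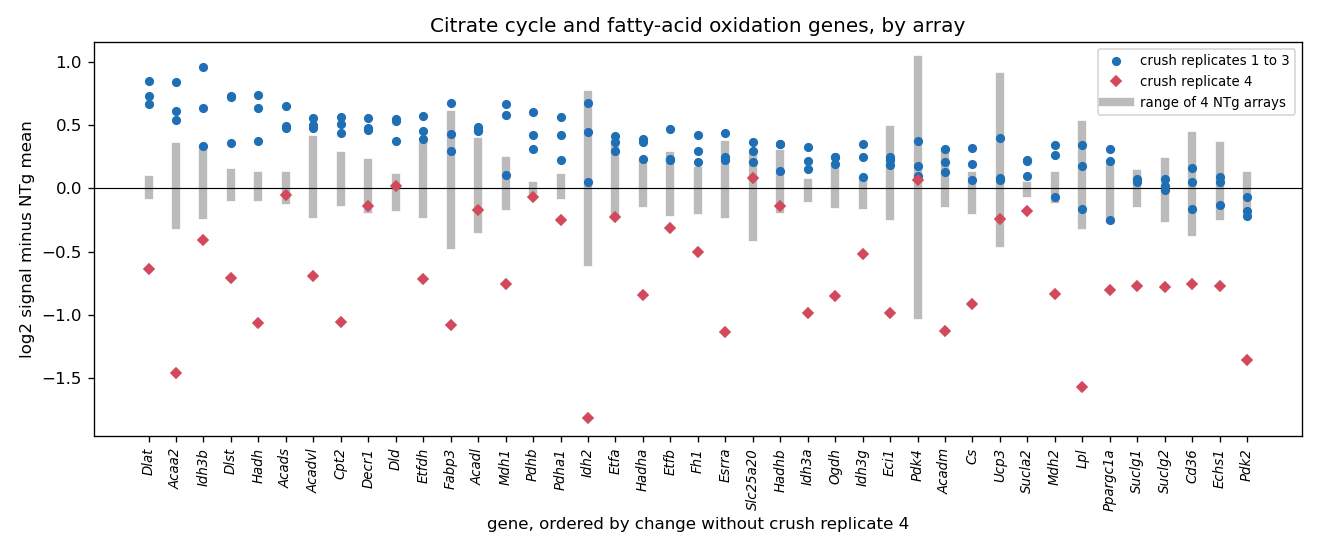
Log2 signal minus the NTg mean for 41 genes of the citrate cycle and fatty-acid oxidation, ordered along the horizontal axis by the change without crush replicate 4. Circles are crush replicates 1 to 3, diamonds replicate 4 and grey bars the range of the 4 NTg arrays. The list median was 0.29 to 0.36 in the circles and -0.75 in the diamonds.

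Other genes were raised in replicates 1 to 3 and not in replicate 4. Gamt, the enzyme that makes creatine, read 7.94, 7.58, 7.64 and 5.85 after the crush and 6.06, 5.96, 6.0 and 6.29 in NTg muscle. Replicates 1 to 3 were clear of the NTg range and replicate 4 was under it. It rose by 1.64 ± 0.17 without replicate 4 (adjusted p = 8.7e-05, limma) and by 1.17 ± 0.30 with it (adjusted p = 0.0344). Grb14, an adaptor that dampens insulin receptor signalling, read 7.71, 7.76, 8.01 and 3.99 against 6.26, 6.58, 6.43 and 6.84. It rose by 1.30 ± 0.23 without replicate 4 (adjusted p = 0.00463), against 0.34 with it (adjusted p = 0.785). Aplnr, the apelin receptor, read 8.28, 8.31, 8.63 and 6.45 against 7.62, 6.76, 5.94 and 6.13, and rose by 1.79 without replicate 4 (adjusted p = 0.0139), against 1.30 with it (adjusted p = 0.103). Ccnd1, the G1 cyclin, read 7.84, 7.76, 7.37 and 6.38 against 6.64, 6.12, 6.08 and 6.25, and rose in both fits (1.39 and 1.07, adjusted p = 0.000985 and 0.0245).

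Some genes were lower in replicates 1 to 3 than in replicate 4. Wnt4, a secreted signal, read 4.27, 5.57, 5.16 and 6.98 in crushed muscle and 7.21, 6.7, 6.46 and 6.82 in NTg muscle. It fell by 1.80 ± 0.35 without replicate 4 (adjusted p = 0.00742, limma), and the change with all arrays was -1.30 (adjusted p = 0.0813). Bex1, a small protein of regenerating muscle and nerve, read 7.47, 7.72, 7.57 and 9.01 against 8.65, 8.64, 8.97 and 8.96, and fell by 1.22 (adjusted p = 0.0176) without replicate 4, the array that lay above NTg. With all arrays the change was -0.86 (adjusted p = 0.133). Tubb4b, a beta tubulin, read 8.21, 8.21, 8.13 and 9.08 against 9.55, 9.59, 9.43 and 9.50, and fell in both fits, by 1.11 with all arrays and by 1.33 without replicate 4, with every crush array under the NTg range. Cacna1s, the voltage sensor of the fibre membrane, read 9.76, 9.66, 9.76 and 10.40 against 10.20, 10.12, 10.18 and 10.19. It fell by 0.44 without replicate 4 (adjusted p = 0.0101, limma) and was not called with it (adjusted p = 0.226).

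Genes of protein breakdown gave few calls. Fbxo32, the ubiquitin ligase atrogin-1 that is raised in wasting muscle, read 7.77, 7.55, 8.08 and 8.02 after the crush and 8.31, 8.80, 8.72 and 8.74 in NTg muscle. Every crush array was lower, and the fall was 0.79 ± 0.21 (adjusted p = 0.0374, limma) and 0.84 ± 0.23 without replicate 4 (adjusted p = 0.0358). The call was kept in 3 of 8 and 1 of 7 fits that left out an array. It was the 1 called member of 11 tested atrophy and FoxO genes, beside 2.96% of all genes lower with all arrays and 2.86% without replicate 4. Of 34 proteasome genes 0 were called with all arrays and 1 fell without replicate 4, near that background. It was Psmd2 of the regulatory particle (-0.44, adjusted p = 0.0116, and -0.24, adjusted p = 0.375, with all arrays), which read 9.50, 9.60, 9.56 and 10.37 against 10.11, 9.97, 9.91 and 9.99. The proteasome list's median over NTg was 0.63 in crush replicate 4 and between -0.05 and -0.02 in replicates 1 to 3.

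Among 24 autophagy and lysosome genes, 1 rose and 2 fell with all arrays, and 2 rose and 1 fell without replicate 4. Over all genes 1.26% rose and 2.96% fell with all arrays, and 2.67% and 2.86% without replicate 4. The rises were Map1lc3a, which read 10.62, 10.80, 10.53 and 11.75 after the crush against 9.97, 9.85, 9.59 and 9.58, and, without replicate 4, Ctsb, a lysosomal protease (0.52, adjusted p = 0.0162, limma, and 0.42, adjusted p = 0.0564, with all arrays). Tfeb, the master regulator of lysosome genes, read 6.93, 6.86, 6.86 and 6.64 against 7.32, 7.40, 7.62 and 7.65 and fell in both fits, and the kinase Ulk1, which starts autophagy, fell with all arrays (-0.62, adjusted p = 0.046, and -0.63, adjusted p = 0.056, without replicate 4), although for Tfeb leaving out any 1 more array beside replicate 4 ended the call. Of 20 antioxidant and metal-response genes, 3 rose and 1 fell with all arrays (1.26% and 2.96% of all genes) and 4 rose and 1 fell without replicate 4 (2.67% and 2.86% of all genes), with Gpx1, Prdx2, a peroxiredoxin, and Txn2, the mitochondrial thioredoxin, rising in both and Sod2, the mitochondrial superoxide dismutase, without replicate 4 (0.44, adjusted p = 0.019, and 0.22, adjusted p = 0.45, with all arrays). Txnip was the fall in both. Leaving out 1 array mostly ended the calls of Txn2, kept in 1 of 8 and 1 of 7 fits, and of Prdx2, kept in 3 of 8 and 3 of 7. Their highest adjusted p was 0.139 and 0.102, both without crush replicates 2 and 4. A dimmer Prdx2 probe set that passed the filter did not rise. Its groups overlapped, and its change was -0.10 with all arrays and 0.03 without replicate 4.

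Sarcomere lists had no calls in either fit. The slow-fibre list varied by array rather than by group. Its median over the NTg mean was 0.20, 0.27, -1.68 and 0.30 in crush replicates 1 to 4 and 0.22, -1.03, 0.63 and 0.20 in NTg replicates 1 to 4. Crush replicate 3 and NTg replicate 2 were therefore low in genes such as Tnnc1, the slow troponin C, which read 11.48, 11.44, 9.02 and 11.25 against 11.76, 10.14, 11.72 and 11.69. Without those arrays and crush replicate 4, an alternative chosen after seeing the data, 0 citrate cycle and fatty-acid genes were called, and their median was 0.28. The part of fibre content in the results was not tested.

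**Figure D4:**
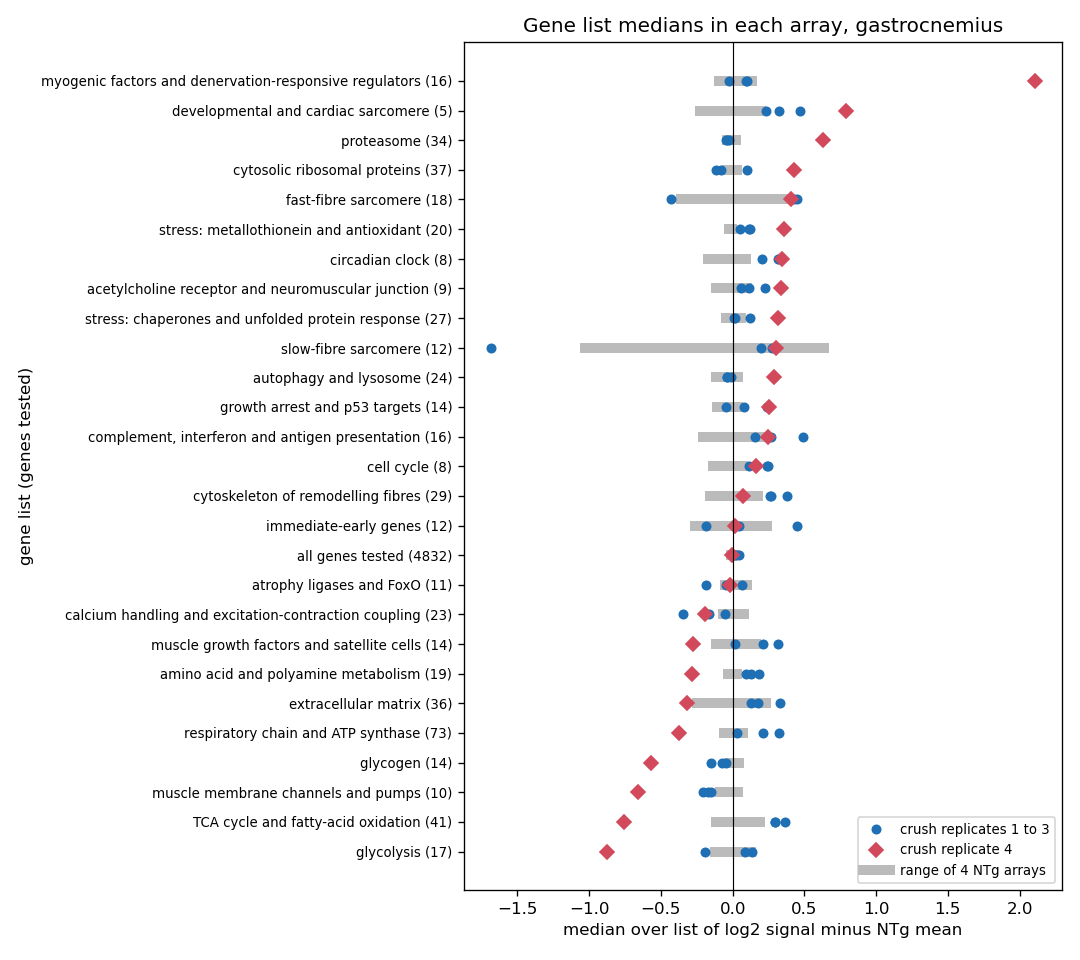
Median over each gene list of log2 signal minus the NTg mean, with the number of genes tested in brackets. Circles are crush replicates 1 to 3, diamonds replicate 4 and grey bars the range of the 4 NTg arrays. Replicate 4 lies at 2.11 for myogenic regulators and at -0.75 for the citrate cycle and fatty-acid oxidation, and over all genes tested the arrays lie near 0.

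Of 3 tested nerve and myelin markers 1 fell, beside 2.96% of all genes lower with all arrays and 2.86% without replicate 4. Mbp, myelin basic protein of Schwann cells, read 8.42, 5.65, 6.97 and 5.49 in crushed muscle, against 8.88, 9.23, 8.72 and 9.08 in NTg muscle. In this probe set all crush arrays lay below NTg but differed widely among themselves, with replicate 1 close to NTg and replicates 2 and 4 lowest. A dimmer Mbp probe set was also lower in every crush array, while others that passed the filter overlapped NTg. In those, replicate 1 read 7.55 against 6.42 to 7.35 in NTg muscle, and 7.92 against 7.38 to 8.10. Mbp fell by 2.35 ± 0.52 (adjusted p = 0.0163, limma) and by 1.97 ± 0.52 without replicate 4 (adjusted p = 0.0356). Its call ended without crush replicate 2 (adjusted p = 0.061), and with replicate 4 also left out it was 0.23. Pmp22, another myelin protein, read 9.30, 7.76, 8.39 and 7.08 against 8.93, 9.57, 9.26 and 8.91, with replicate 1 inside the NTg range and no call (adjusted p = 0.073 with all arrays and 0.16 without replicate 4). Of 19 Schwann and nerve markers 6 were measured and 3 passed the filter. Their summed linear signal was 282 to 1139 in crush arrays and 1128 to 1548 in NTg arrays.

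Markers of other cells gave few calls. Of 11 tested macrophage and monocyte markers 0 were called. All 11 changes were positive in both fits, beside 2611 of all 4832 genes with all arrays and 2608 without replicate 4. Their median change was 0.35 with all arrays and 0.37 without replicate 4. By array, their median over the NTg mean was 0.71, 0.06, 0.47 and 0.13 in crush replicates 1 to 4. In the NTg arrays it lay between -0.15 and 0.19. The summed signal of the 15 measured was 1088 to 1759 in crush arrays and 984 to 1271 in NTg arrays. Lgals3, a galectin of macrophages and damaged tissue, read 6.46, 6.35, 6.19 and 8.68 against 6.63, 5.36, 4.73 and 5.80. No endothelial (11 tested), smooth muscle and pericyte (8) or adipocyte (7) marker was called. Of 12 fibroblast markers 1 rose without replicate 4, beside 2.67% of all genes. It was Cd34 (0.54, adjusted p = 0.036, limma), against 0.28 with that array (adjusted p = 0.455). Of 16 lymphocyte and granulocyte markers 2 were measured. Ighm, the immunoglobulin heavy chain, read 5.27, 5.76, 5.57 and 4.55 in crushed muscle against 6.05, 6.49, 5.94 and 6.90 in NTg muscle. It fell with all arrays (-1.06, adjusted p = 0.0482), a call kept in 0 of 8 fits that left out an array, and the change without replicate 4 was -0.81 (adjusted p = 0.103). A dimmer Ighm probe set went the other way, at 5.16, 5.0, 4.99 and 5.96 against 4.03, 3.78, 3.73 and 3.49. S100a8, a calprotectin subunit of granulocytes and below the filter, read 4.90, 3.03, 4.76 and 8.62 against 2.96, 4.34, 4.13 and 4.05, so that replicate 4 stood apart. The summed linear signal of these 2 markers was 416 in crush replicate 4, 62.4 to 74.5 in the other crush arrays and 74.2 to 136 in the NTg arrays. Of 29 genes of the cytoskeleton of remodelling fibres, 3 rose and 2 fell with all arrays (1.26% and 2.96% of all genes), and 3 rose and 3 fell without replicate 4 (2.67% and 2.86% of all genes). They were Tubb6, Tmsb4x, an actin-binding peptide, and Vim, and, lower, Tuba8 and Tubb4b, with the alpha tubulin Tuba4a added without replicate 4 (-0.71, adjusted p = 0.048, and -0.45, adjusted p = 0.29, with all arrays). Vim, the intermediate filament of many non-fibre cells and young fibres, read 9.65, 9.79, 9.89 and 9.03 against 9.15, 9.18, 8.62 and 8.88, with replicate 4 inside the NTg range. Whether other cell types contribute to the called genes was not tested.

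SOD1 gastrocnemius was set against the crush for the same genes, with both compared with the same NTg arrays. The test also shares the crush arrays by whose values many of these genes were named. With all crush arrays limma called 0 probe sets between SOD1 and crush, although 940 had an unadjusted p under 0.05. Crush replicate 4 correlated with the SOD1 arrays at r of 0.930 to 0.951. Its r was 0.902 to 0.909 with the other crush arrays and 0.886 to 0.894 with the NTg arrays. Without crush replicate 4 limma called 604 of 7523 (8.03%), 281 higher and 323 lower in SOD1. Chrna1 read 8.57, 10.23, 10.30 and 10.85 in SOD1 muscle, against 6.97, 7.28 and 7.40 in crush replicates 1 to 3, and was higher in SOD1 by 2.77 (adjusted p = 0.00691). All SOD1 arrays were above these crush arrays, and crush replicate 4, at 11.34, was above the SOD1 arrays. Myog was higher in SOD1 by 2.56 (adjusted p = 0.00515), Tubb6 by 2.94 (adjusted p = 0.00537) and Rapsn by 1.06 (adjusted p = 0.00266).

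Genes raised in crush replicates 1 to 3 were lower in SOD1 muscle in several cases. These genes were named largely for high values in those same crush arrays, which favours a negative difference here. Their p-values are therefore not independent support. Gamt read 6.40, 6.55, 6.44 and 6.06 in SOD1 muscle against 7.94, 7.58 and 7.64 in those crush arrays, a difference of -1.36 (adjusted p = 0.000312, limma). Grb14 differed by -1.85 (adjusted p = 0.000312), Dlat by -0.85 (adjusted p = 0.0011) and Cbr2 by -1.23 (adjusted p = 0.0398). For other genes the SOD1 and crush arrays were not told apart by the test. Sln read 11.76, 12.78, 12.66 and 12.31 in SOD1 muscle, 1.14 above crush replicates 1 to 3 with a 95% interval of -0.13 to 2.41. Pfkfb3 differed by 0.46 with an interval of -0.78 to 1.70, and Ccdc50 by -0.07 with an interval of -0.39 to 0.25. These differences had adjusted p-values of 0.25, 0.675 and 0.818.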

How the data were processed

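Log2 values of MAS5 signals, 10748 probe sets on 20 arrays, were taken from the table the authors deposited. MAS5 is named in the submitters' processing notes, without a version or target level. Per the labels' protocols, Trizol-extracted, column-purified RNA was biotin labelled. Depth does not apply to arrays, and the signals have no floor. The platform annotation gave 1 symbol for 9874 probe sets, several for 387 and none for 487, and 9862 were matched to RefSeq (GRCm38.p6). The lowest 30% of probe sets by mean (under 5.88) were left out. limma 3.58.1 in R 4.3.3 fitted 5 group means to the other 7523 (eBayes with trend), with and without crush replicate 4. Benjamini-Hochberg adjustment ran over all of them, and an adjusted p under 0.05 was called. A gene was represented by its brightest single-symbol probe set. Lists were described by counts and medians, with no set test.

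The genes, lists and alternatives were chosen with earlier results of these data known. Named genes were the 15 largest rises and falls among called genes with no overlap in each fit, up to 4 called genes from every list (1 or 2 of the largest changes in lists with no call), and the receptor and myogenic genes. Clone names were passed over. Cd24a, Ulk1, Sod2, Tmsb4x and Tuba4a were named after their values were seen. Alternatives were other scalings, filters and fits and leaving out each array. Replicate numbers did not pair crush with NTg gastrocnemius: deviations of same-numbered arrays of these groups correlated at -0.13 to 0.08. Other pairs of groups, such as gastrocnemius and triceps, were not checked. The code was tested on simulated data. Figures used matplotlib 3.10.9.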

Additional observations from a re-analysis of the deposited data

Results flagged for a closer look

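In 31 gene and group combinations the highest or lowest of 4 arrays was separated from its nearest neighbour by an unusually large share of the group's range. About 1 in 20 groups does this by chance when genes are not chosen by their values. The genes here were largely chosen by their values, in part without crush replicate 4, so their counts cannot be compared with that rate. Of 106 probe sets looked at, 13 had crush replicate 4 as the high value and 7 had it as the low one.

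Crush replicate 4 was high, in log2 signal, for Chrna1 (11.3), Chrng by its dimmer probe set (6.14), Runx1 (8.02), Myf6 (11.2), Myod1 (9.56), Eef1a1 (12.8), Lgals3 (8.68), Phlda3 (10.5), Rhoc (9.30), Psmd2 (10.4), Cacna1s (10.4), Bex1 (9.01) and Tubb4b (9.08). It was low for Acaa2 (7.80), Aplnr (6.45), Ctsb (10.2), Dlat (8.19), Fabp4 (10.6), Grb14 (3.99) and Tuba8 (7.64).

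Crush replicate 3 was low for Pvalb (11.5), Tnnc1 (9.02) and Tpm3 (8.20) and high for Rasd2 (7.38). Crush replicate 1 was high for Retn (7.60). Among the NTg arrays, replicate 1 was low for Fbxo32 (8.31), replicate 2 for Itga7 (6.56), Jund (8.23) and Tnnc1 (10.1), and replicate 3 for Rpl37 (9.41), while replicate 4 was high for Rasd2 (8.88).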

How the results depend on the processing

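Other scalings, filters and priors kept the counts of called probe sets within 1.5 times the reported ones. With all arrays, array weights gave 557 higher and 688 lower, an added 2-fold change left 21 and 49, and leaving out each array in turn gave 23 to 171 higher and 71 to 224 lower. Without crush replicate 4, a fit on the compared arrays alone gave 584 and 637, array weights 593 and 680, the 2-fold change 20 and 43, and leaving out a further array 21 to 126 higher and 41 to 151 lower. The share of higher calls with all arrays was 44.7% under array weights, against 26.1% in the reported fit. SOD1 against crush gave 281 higher and 323 lower without crush replicate 4. With the replicate number as a block, the counts were 155 higher and 339 lower with all arrays and 251 and 355 without crush replicate 4. For SOD1 against crush they were 0 and 0. Only 1 of 4 crush arrays correlated best with the NTg array of its own number, which gave no basis for a block between these groups. Other pairs of groups were not checked. Among the named genes, no called gene changed direction against the reported fit from the same starting arrays. Between the starting sets the direction could differ. Acaa2, Grb14 and Hadh were called higher without crush replicate 4. In fits that kept it and left out another array, their lowest changes were -0.10, -0.04 and -0.02. Of the named genes, 23 of 45 calls with all arrays, and 17 of 59 without crush replicate 4, were kept whichever array was left out. The cause of these shifts was not tested. Counts within lists under other scalings and array sets were added after seeing the data.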
